A study of Mus musculus with 8 samples.

Results

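Genes of cholesterol and fatty acid synthesis were followed in brain endothelial cells of mouse pups at postnatal day 8. The set held 31 gene symbols out of the 24394 listed in every library, chosen by name. They were SREBP regulators (5 genes), enzymes from acetyl-CoA to squalene (8), enzymes from squalene to cholesterol (9), a sterol carrier (1) and fatty acid synthesis genes (8). YAPTAZ-ECKO and WT pups, with 4 libraries each, were compared on the C57BL/6J strain. YAPTAZ-ECKO pups carried VE-cadherin-CreERT2 with Yapf/f and Tazf/f, so an inducible Cre under an endothelial promoter acted on floxed alleles of both genes. WT pups were wild type. No control with the Cre alone or the floxed alleles alone was part of the comparison, the sources used here do not give the induction scheme, and effects of the driver cannot be told apart from those of the deletion. Cells had been sorted by flow cytometry, and nothing in the labels ties a library to its own pup. The p-values therefore describe only the spread among the 8 libraries, which may be technical.

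Cells make cholesterol from acetyl-CoA through mevalonate and squalene, and fatty acids from the same precursor through malonyl-CoA. SREBP transcription factors, encoded by Srebf1 and Srebf2, switch on most of these enzymes. They are held in the endoplasmic reticulum with SCAP by INSIG proteins when sterols are plentiful, and are released by cleavage in the Golgi when sterols are scarce. The adult brain is shielded from lipoprotein cholesterol by the blood-brain barrier and makes its own sterol, while its endothelium imports docosahexaenoic acid through Mfsd2a.

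The deposited values were log2 values of scaled reads, meaning read counts brought to a common library size. The lowest linear value above 0 was 1.10 to 1.99 in a library, so that a gene listed at 0 may have had a read where 1 read was worth less than 1 scaled read. On the linear scale each library summed to 10.3 to 10.9 M scaled reads, and the spacing of the low values implied 6.77 to 13.5 M reads in YAPTAZ-ECKO and 7.55 to 16.8 M in WT libraries. Wwtr1, which encodes TAZ, stood at 348, 2609, 1261 and 1124 scaled reads in YAPTAZ-ECKO 1 to 4, against 8220, 5906, 6756 and 5650 in WT 1 to 4 (limma adjusted p = 0.0113). Yap1 averaged 327 ± 248 scaled reads in YAPTAZ-ECKO against 1964 ± 613 in WT (± SD; n = 4 per genotype; limma adjusted p = 0.175), and neither gene overlapped between the genotypes. All 12 endothelial markers were above 0 in all 8 libraries, with a summed level of 12504 to 17837 CPM (scaled reads brought to an equal total per library) in YAPTAZ-ECKO and 15134 to 16637 CPM in WT. Markers of the other brain cells were far lower, and 5 of 11 oligodendrocyte lineage markers, among them Olig1, Sox10 and Mog, were listed at 0 in every library. Their sum was 21.1 to 120 CPM in YAPTAZ-ECKO against 0.182 to 57.3 CPM in WT, that of 8 astrocyte markers 48.1 to 117 against 78.0 to 187, that of 8 neuron markers 0 to 183 against 0.546 to 17.4, that of 8 microglia and macrophage markers 0 to 11.9 against 0 to 15, and that of 12 mural cell and fibroblast markers 15 to 109 against 40.7 to 176. The 7 erythroid markers summed to 1256 to 4669 CPM in YAPTAZ-ECKO against 1286 to 3501 CPM in WT. Hba-a1 and Hba-a2 among them held the same value in each library, so this sum may count the same reads repeatedly.

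None of the cholesterol and fatty acid synthesis genes passed the test between the genotypes. Of the 31 genes, 22 had enough reads to enter it, meaning 10 scaled reads or more in 4 or more libraries of either genotype. In limma, on log2 of scaled reads plus a pseudocount of 2 to the power of 7, 0 of these 22 reached a Benjamini-Hochberg adjusted p of 0.05 over all 8706 tested genes, where 3 genes, or 0.0345%, did so. At an unadjusted limma p of 0.05 the count was also 0 of 22, against 5.47% of all tested genes (3.69% lower and 1.78% higher), and voom, the other tool run, called 0 genes in the whole table, with 1 of the 22 (Insig2) at an unadjusted p under 0.05, as had 5.97% of all tested genes in voom. Each of the 22 genes overlapped between the groups, while 3.4% of all tested genes did not (2.07% lower and 1.33% higher). The fitted log2 difference was below 0 for 14 and above 0 for 8 of the 22, or 63.6% below 0, near the 56.9% of all tested genes below 0 and 43.1% above it. Its median was -0.17, against -0.089 over all tested genes, and in voom -1.06 against -0.25. In limma the single values ran from -1.57 for Insig2 to 0.76 for Mvk. In bulk RNA, fewer transcribing cells and less RNA per cell cannot be told apart in any of these values.

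**Figure D1:**
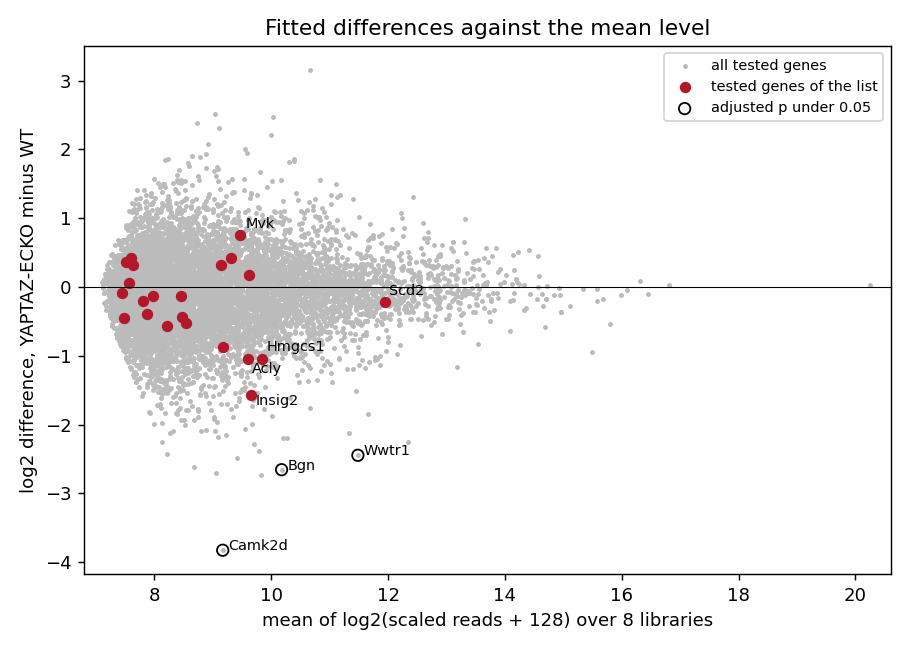
Fitted log2 difference (YAPTAZ-ECKO minus WT, n = 4 each) against the mean log2 level, with pseudocount, over 8 libraries for 8706 tested genes (grey) and the 22 tested cholesterol and fatty acid synthesis genes (red). The red points lie within the grey cloud between -1.57 and 0.76, and the circled genes with an adjusted limma p under 0.05 are Wwtr1, Camk2d and Bgn.

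The precision of these libraries set what could be seen. The 95% confidence interval of a listed gene reached 0.67 to 1.87 log2 units to either side of its fitted difference, with a median of 1.11 for the 22 genes and 1.10 for all tested genes. It reached more than 1 unit to either side for 15 of the 22. The SD within groups had a median of 0.70 log2 units for the 22 genes and 0.69 for all tested genes.

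Detection itself differed between libraries. Of the 31 genes, 10 were above 0 in every library (Srebf2, Scap, Acat2, Mvk, Idi1, Ebp, Stard4, Acly, Scd2 and Fads1). The number listed at 0 was 14, 11, 9 and 10 in YAPTAZ-ECKO 1 to 4 and 6, 8, 8 and 8 in WT 1 to 4. Every YAPTAZ-ECKO library thus had more of the 31 at 0 than every WT library. Over all listed genes, 7538, 8762, 8643 and 8408 were above 0 in YAPTAZ-ECKO 1 to 4. In WT 1 to 4 the numbers were 9720, 9325, 9700 and 8621, with WT 4 below YAPTAZ-ECKO 2 and 3. Of the 22 tested genes alone, 6, 4, 3 and 4 were at 0 in YAPTAZ-ECKO 1 to 4 and 1, 2, 1 and 3 in WT 1 to 4, with YAPTAZ-ECKO 3 and WT 4 level. Over all tested genes, 22.3%, 11.6%, 11.6% and 14.4% were at 0 in YAPTAZ-ECKO 1 to 4 and 5.38%, 8.26%, 5.12% and 12% in WT 1 to 4. YAPTAZ-ECKO 1, which had the most zeros, also had the lowest implied depth (6.77 M reads), but WT 2, at 7.55 M, had 8 genes at 0. The part of depth in these numbers was not tested. Among genes that reached 100 scaled reads somewhere in a group, 14 of 24 were listed at 0 in another YAPTAZ-ECKO library (45.3% over all genes) and 10 of 26 in another WT library (33.4% over all genes). Genes of the set with a listed 0 are therefore given by their values in single libraries, without a mean.

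**Figure D2:**
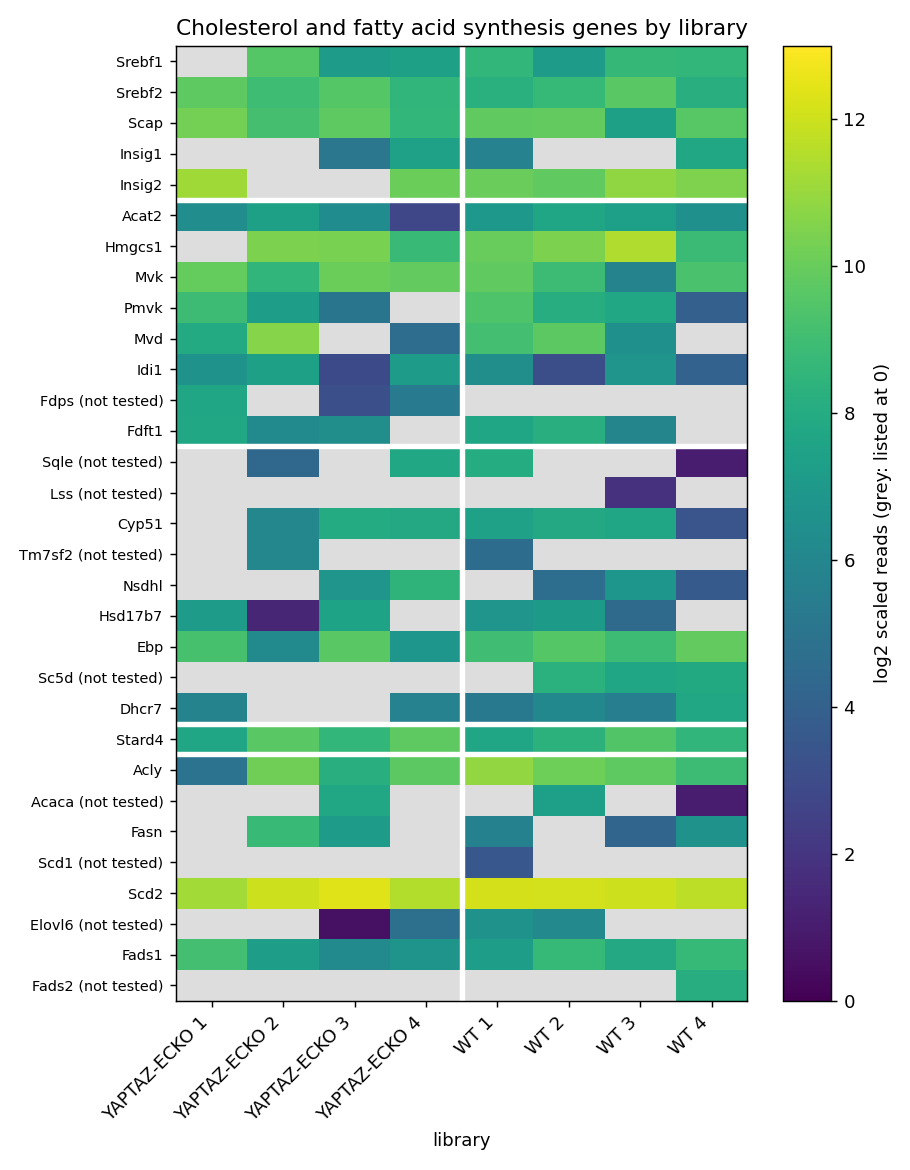
Log2 scaled reads of the 31 genes (rows, in pathway order) in the 4 YAPTAZ-ECKO libraries (left of the white line) and the 4 WT libraries (right); grey cells were listed at 0. Scd2 is bright in all 8 columns, while grey cells number 9 to 14 in each YAPTAZ-ECKO column and 6 to 8 in each WT column.

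Among the SREBP regulators, neither the factors nor their escort differed beyond the spread between libraries. Srebf2 (chromosome 15, 82147181 to 82205379, plus strand, GRCm38), whose product mainly drives the sterol enzymes, stood at 872, 507, 770.1 and 378 scaled reads in YAPTAZ-ECKO 1 to 4, against 301, 426, 807 and 283 in WT 1 to 4. Values in YAPTAZ-ECKO lay mostly above those in WT, but WT 3 was the second highest of all 8. Its fitted log2 difference was 0.42 ± 0.52 (SE; 95% interval -0.65 to 1.48; limma adjusted p = 0.99). Srebf1 (chromosome 11, 60199089 to 60222581, minus strand), whose product mainly drives fatty acid genes, was listed at 0, 761, 144 and 167 in YAPTAZ-ECKO 1 to 4, against 391, 148, 400.0 and 396 in WT 1 to 4. YAPTAZ-ECKO 2 exceeded all WT libraries, YAPTAZ-ECKO 1 and 3 lay below all of them, and YAPTAZ-ECKO 4 lay near WT 2, the lowest WT library. Scap (chromosome 9, 110333288 to 110384950), the sterol sensor that carries SREBP to the Golgi, averaged 770.3 ± 374 scaled reads in YAPTAZ-ECKO against 703 ± 361 in WT (± SD; n = 4 per genotype). Its 95% interval ran from -0.90 to 1.26 log2 units.

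The INSIG genes, whose products retain SCAP in the endoplasmic reticulum, behaved unevenly across libraries. Insig2 (chromosome 1, 121304353 to 121332589, minus strand) stood at 2277, 0, 0 and 1094 scaled reads in YAPTAZ-ECKO 1 to 4, against 1042, 906, 1836 and 1440.1 in WT 1 to 4. It was thus listed at 0 in YAPTAZ-ECKO 2 and 3, while YAPTAZ-ECKO 1 held the highest value of all 8. This split gave the most negative fitted log2 difference of the set, -1.57 ± 0.86 (SE; 95% interval -3.44 to 0.30; limma p of 0.0929 unadjusted and 0.960 adjusted). With 1 library left out the difference ran from -2.36 to -0.94. The value of -2.36 arose without YAPTAZ-ECKO 1, its highest library (limma p of 0.00222 unadjusted and 0.495 adjusted). In that setting 5.84% of all tested genes had an unadjusted limma p under 0.05. The value of -0.94 arose without YAPTAZ-ECKO 2 or YAPTAZ-ECKO 3 (limma adjusted p of 0.924 and 0.915). Insig1, itself an SREBP target, was listed at 0, 0, 36.1 and 173 in YAPTAZ-ECKO 1 to 4, against 55.3, 0, 0 and 214 in WT 1 to 4, and each genotype had 2 libraries at 0.

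The enzymes that lead to squalene gave values in both directions. Hmgcs1 (chromosome 13, 119690379 to 119708260, plus strand), which makes HMG-CoA in the cytosol, stood at 0, 1394, 1356 and 441 scaled reads in YAPTAZ-ECKO 1 to 4, against 1015, 1367, 2805 and 471 in WT 1 to 4. Apart from the 0 in YAPTAZ-ECKO 1 and the high value in WT 3, the libraries of both genotypes shared a range. The fitted log2 difference was -1.05 ± 0.72 (SE; 95% interval -2.57 to 0.48; limma adjusted p = 0.981). Without YAPTAZ-ECKO 1 it was -0.28, and without WT 3 it was -0.66. Mvk (chromosome 5, 114444269 to 114460591), mevalonate kinase, had the highest fitted difference of the set. Its values were 976, 378, 1099 and 942 scaled reads in YAPTAZ-ECKO 1 to 4, against 917, 487, 57.2 and 625 in WT 1 to 4. YAPTAZ-ECKO 1, 3 and 4 lay above all WT libraries and YAPTAZ-ECKO 2 below 3 of them, with a fitted log2 difference of 0.76 ± 0.56 (SE; 95% interval -0.39 to 1.91; limma adjusted p = 0.981). Without WT 3 it was 0.24.

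Acat2, the cytosolic acetoacetyl-CoA thiolase at the head of the route, stood at 83.2, 170.2, 81.3 and 6.91 scaled reads in YAPTAZ-ECKO 1 to 4, against 122, 204, 163 and 90.5 in WT 1 to 4. YAPTAZ-ECKO 1, 3 and 4 lay below all WT libraries and YAPTAZ-ECKO 2 within their range. When YAPTAZ-ECKO 2 was left out, Acat2 lay lower and Mvk higher in YAPTAZ-ECKO without overlap, at a time when 7.06% of all tested genes did not overlap. Acat2 has a close paralogue, Acat3, so its reads may be shared with that gene. Pmvk, phosphomevalonate kinase, stood at 477, 156, 33.8 and 0 in YAPTAZ-ECKO 1 to 4 against 694, 278, 225 and 15.9 in WT 1 to 4. Mvd, the decarboxylase after it, was listed at 246, 1607, 0 and 25.3 in YAPTAZ-ECKO 1 to 4 against 552, 839.9, 93.5 and 0 in WT 1 to 4. Both genes varied within each genotype by more than the genotypes differed. Idi1 (isopentenyl diphosphate isomerase) averaged 104 ± 69.9 scaled reads in YAPTAZ-ECKO against 55.7 ± 50.7 in WT (± SD; n = 4 per genotype).

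At the branch point, Fdps and Fdft1, which make farnesyl diphosphate and squalene, were poorly listed. Fdps was listed at 209, 0, 9.18 and 39.1 scaled reads in YAPTAZ-ECKO 1 to 4 and at 0 in WT 1 to 4, and it did not enter the limma test. An exact, two-sided permutation test of its values gave p = 0.143. With 5 libraries at 0, this was the smallest p the test could give for these values, so it could not decide. Without such ties, 4 libraries against 4 cannot go below 0.0286. GENCODE places another protein-coding gene model over nearly all of Fdps on the same strand, and reads in that overlap may have gone uncounted or been shared. Fdft1 stood at 214, 72.7, 86.7 and 0 in YAPTAZ-ECKO 1 to 4 against 205, 289, 59.8 and 0 in WT 1 to 4, so each genotype had 1 library at 0.

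Of the enzymes from squalene to cholesterol, 5 of 9 entered the test. Ebp (chromosome X, 8185329 to 8193512, minus strand), the sterol isomerase also known as emopamil binding protein, had the most scaled reads among them. It stood at 605, 73.6, 803 and 114 in YAPTAZ-ECKO 1 to 4, against 515, 771, 483 and 929 in WT 1 to 4. YAPTAZ-ECKO 2 and 4 lay far below every WT library, and YAPTAZ-ECKO 1 and 3 within the WT range. For Ebp the fitted log2 difference was -0.87 ± 0.57 (SE; 95% interval -2.06 to 0.31; limma adjusted p = 0.980). Without YAPTAZ-ECKO 2 it was -0.51. Dhcr7, the reductase that finishes cholesterol from its 7-dehydro precursor, was listed at 57.0, 0, 0 and 54.0 scaled reads in YAPTAZ-ECKO 1 to 4, against 38.0, 67.4, 46.8 and 219 in WT 1 to 4.

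Sc5d encodes the sterol desaturase that supplies Dhcr7 with its substrate. Its value was 0 in all 4 YAPTAZ-ECKO libraries, against 0, 316, 200 and 235 scaled reads in WT 1 to 4. WT 1, the most deeply read library at 16.8 M implied reads, shared the 0. With 3 libraries above 0 Sc5d did not enter the test, and a two-sided exact permutation test of its values gave p = 0.143. With 5 libraries at 0, this was the smallest p the permutation test could give for these values, so it could not decide. With no filter on low values its unadjusted limma p was 0.0177 and its adjusted p 0.854. In that setting Sc5d was the 1 gene of the 31 with an unadjusted limma p under 0.05, as had 4.64% of all genes fitted. Cyp51, lanosterol demethylase, stood at 0, 64.7, 259 and 228 in YAPTAZ-ECKO 1 to 4 against 176, 229, 197 and 10.9 in WT 1 to 4. Nsdhl and Hsd17b7 act together in the removal of methyl groups from carbon C4 of the sterol. Nsdhl stood at 0, 0, 111 and 352 in YAPTAZ-ECKO 1 to 4, against 0, 25.8, 114 and 12.9 in WT 1 to 4. Hsd17b7 stood at 148, 2.65, 184 and 0 in YAPTAZ-ECKO 1 to 4, against 111, 135, 22.5 and 0 in WT 1 to 4. Libraries of both genotypes were at or near 0 for either gene. Sqle, which makes squalene epoxide, was above 0 in 2 libraries of each genotype (20.4 and 214 in YAPTAZ-ECKO 2 and 4; 266 and 1.99 in WT 1 and 4). Tm7sf2 was above 0 in YAPTAZ-ECKO 2 (65.8) and WT 1 (24.1), and Lss, lanosterol synthase, in WT 3 (3.60).

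**Figure D3:**
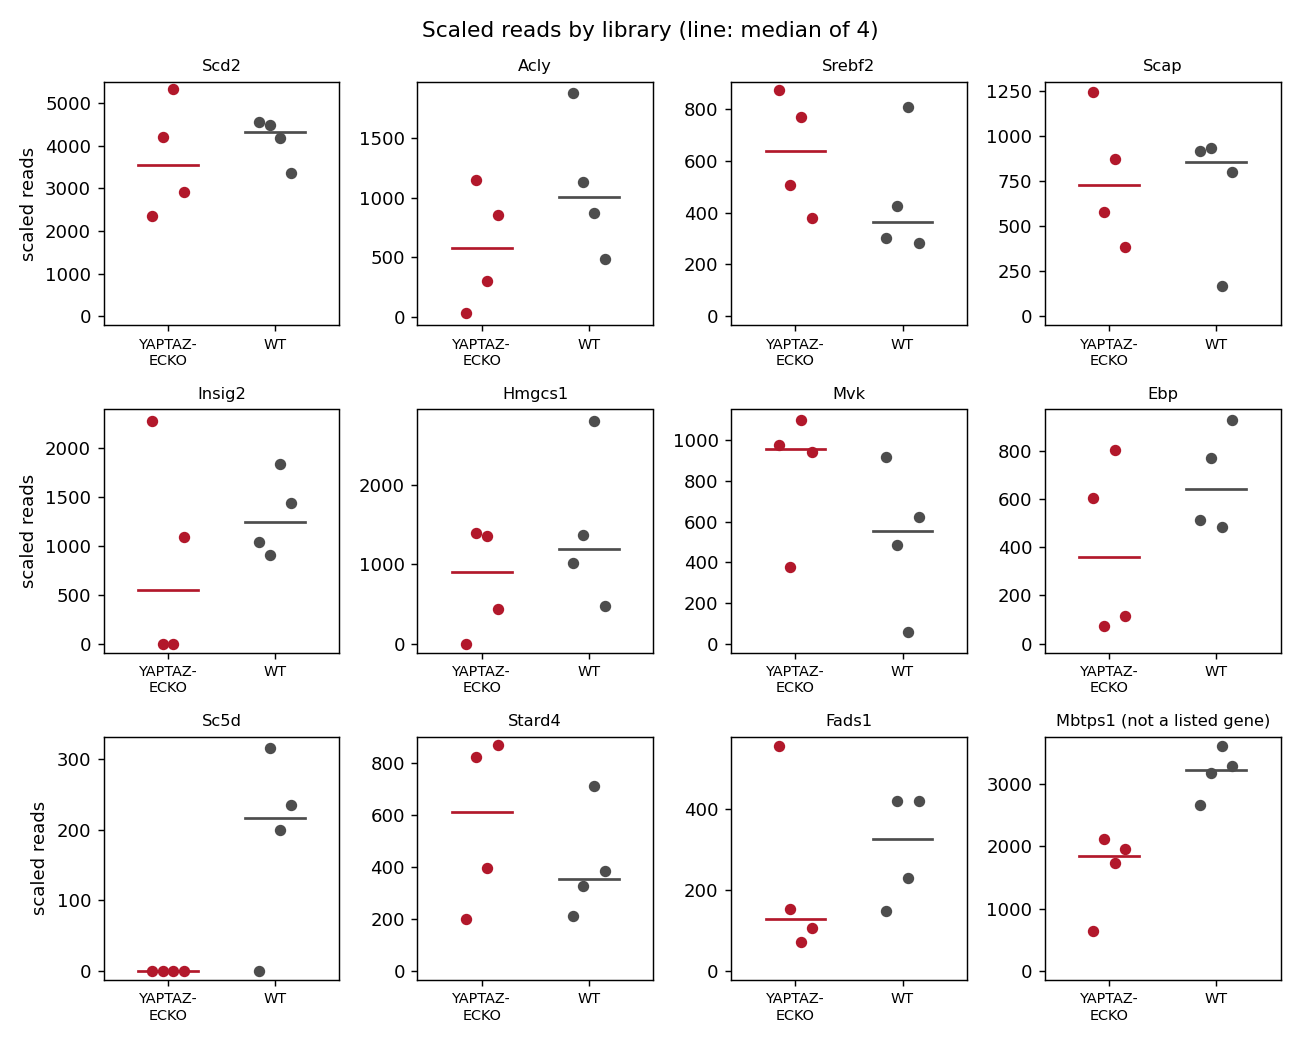
Scaled reads per library (points) with the median of 4 (line) for 11 cholesterol and fatty acid synthesis genes and 1 related gene, YAPTAZ-ECKO left and WT right in each panel, each with its own linear axis. The groups overlap for Scd2, Acly, Srebf2, Scap, Insig2, Hmgcs1, Mvk, Ebp, Sc5d, Stard4 and Fads1, and not for Mbtps1.

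Promoters of these genes were searched for short elements, in the 250 bases before the start of each gene's transcript (RefSeq, GRCm38.p6; 24 of the 31 genes matched). The element letters were TCACNCCAC (a form of the sterol regulatory element, bound by SREBP), CCAAT (bound by NF-Y) GGGCGG (bound by Sp1) and CACGTG (an E-box), read on both strands; none of them contains another. CCAAT was present for 18 of 24 genes (75%), against 37.5% of all 27025 genes with a promoter sequence, and GGGCGG for 20 of 24 (83.3%) against 35.4%. CACGTG was present for 5 of 24 (20.8%) against 6.86%. A gene counted when any of its promoter sequences matched, with 32 sequences for the 24 genes and 32851 for all genes. The genes compared with were not limited to those detected in these libraries, and enrichment was not tested. TCACNCCAC was present for 1 of 24, Hmgcs1, against 1.22% of all genes. Other forms of the sterol regulatory element were not searched, so a gene without a match may still carry one. The promoters of Hmgcs1 and of Sc5d are shown for comparison. That of Hmgcs1 holds this sterol element beside several CCAAT boxes. Reads of Sc5d were at 0 in every YAPTAZ-ECKO library and also in WT 1. Capitals mark TCACNCCAC and CCAAT or its reverse complement ATTGG.
Hmgcs1, chr13:119690101-119690350, plus strand: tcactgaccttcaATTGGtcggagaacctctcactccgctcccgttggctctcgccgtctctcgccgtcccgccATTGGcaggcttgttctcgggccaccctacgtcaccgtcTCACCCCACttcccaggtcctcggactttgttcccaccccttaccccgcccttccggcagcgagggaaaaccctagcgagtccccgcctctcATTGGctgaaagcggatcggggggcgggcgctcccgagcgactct
Sc5d, chr9:42264301-42264550, minus strand: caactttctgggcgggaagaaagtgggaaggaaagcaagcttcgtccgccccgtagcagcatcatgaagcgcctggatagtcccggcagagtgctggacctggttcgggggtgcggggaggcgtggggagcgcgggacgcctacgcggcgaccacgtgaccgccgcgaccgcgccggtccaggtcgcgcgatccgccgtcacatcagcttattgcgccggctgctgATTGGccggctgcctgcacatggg
A match describes these letters only, and the libraries did not measure factor binding.

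Fatty acid synthesis genes were dominated by Scd2, a stearoyl-CoA desaturase that makes monounsaturated fatty acids. Scd2 (chromosome 19, 44293674 to 44306864, plus strand) stood at 2351, 4191, 5330.3 and 2904 scaled reads in YAPTAZ-ECKO 1 to 4, against 4548, 4488, 4168 and 3352 in WT 1 to 4. WT values lay close together, with a ratio of highest to lowest of 1.36, and the YAPTAZ-ECKO values spread to either side of them. Its mean was 3694 ± 1336 in YAPTAZ-ECKO against 4139 ± 550.4 in WT (± SD; n = 4 per genotype), a fitted log2 difference of -0.22 ± 0.32 (SE; 95% interval -0.88 to 0.45; limma adjusted p = 0.99). This was the narrowest interval of the set. Per kilobase of annotated exon, Scd2 had a mean level of 717 scaled reads over the 8 libraries, the highest of the 10 genes above 0 in every library, ahead of Mvk with 256 and Ebp with 232. Which stretch of a transcript was read is unknown, and this order holds only if reads cover whole transcripts. Its neighbour and paralogue Scd1 was listed at 11.7 in WT 1 and at 0 in the other 7 libraries.

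Acly, which supplies cytosolic acetyl-CoA to both routes by cleaving citrate, had the smallest unadjusted p of the 22 genes. Acly (chromosome 11, 100476353 to 100528000, minus strand) stood at 30.8, 1146, 296 and 853 scaled reads in YAPTAZ-ECKO 1 to 4, against 1877, 1129, 873 and 485 in WT 1 to 4. YAPTAZ-ECKO 1 and 3 lay below all WT libraries, and YAPTAZ-ECKO 2 and 4 among them. For Acly the fitted log2 difference was -1.05 ± 0.59 (SE; 95% interval -2.27 to 0.17; limma p of 0.0894 unadjusted and 0.956 adjusted). It was -0.46 without YAPTAZ-ECKO 1. Acaca, the carboxylase that commits acetyl-CoA to fatty acids, was above 0 in YAPTAZ-ECKO 3 (225) and in WT 2 and 4 (160.4 and 1.99). Fasn, the synthase that follows it, stood at 0, 441, 143 and 0 in YAPTAZ-ECKO 1 to 4, against 52.2, 0, 19.0 and 103 in WT 1 to 4.

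Fads1, the delta-5 desaturase, stood at 554, 153, 71.4 and 105 scaled reads in YAPTAZ-ECKO 1 to 4, against 149, 419.9, 230.4 and 419.6 in WT 1 to 4. YAPTAZ-ECKO 1 held its highest value, and YAPTAZ-ECKO 3 and 4 its lowest. Fads2, the delta-6 desaturase beside it on chromosome 19, was above 0 in WT 4 (276) and at 0 elsewhere. Elovl6, which elongates palmitate, was above 0 in YAPTAZ-ECKO 3 and 4 (1.51 and 27.6) and in WT 1 and 2 (98.9 and 70.2). Stard4, a soluble sterol carrier and SREBP target, averaged 572 ± 327 scaled reads in YAPTAZ-ECKO against 408 ± 215 in WT (± SD; n = 4 per genotype), with a 95% interval of its log2 difference from -0.81 to 1.46.

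**Figure D4:**
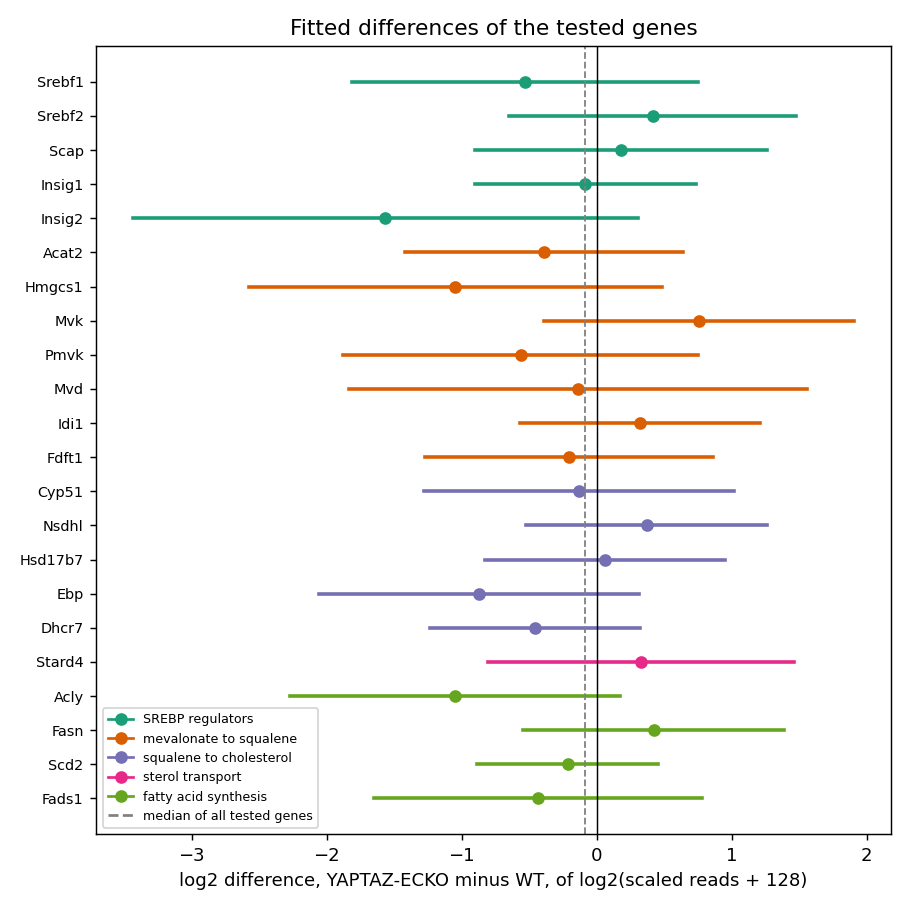
Fitted log2 difference (point; YAPTAZ-ECKO minus WT, n = 4 each) with its 95% confidence interval (bar) for the 22 tested genes, coloured by pathway step; the dashed line is the median of all tested genes, -0.089. Every interval includes 0, from the widest for Insig2 (-3.44 to 0.30) to the narrowest for Scd2 (-0.88 to 0.45).

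Summed over the 31 genes, the genotypes overlapped. The sum was 10645, 12773, 12317 and 9510 scaled reads in YAPTAZ-ECKO 1 to 4, against 14370, 14023, 13795 and 10780 in WT 1 to 4. WT 1 to 3 lay above every YAPTAZ-ECKO library, and WT 4 below 2 of them. Scd2 contributed 22.1% to 43.3% of the sum in YAPTAZ-ECKO and 30.2% to 32.0% in WT libraries. The 17 sterol enzymes summed to 2555 to 4173 scaled reads in YAPTAZ-ECKO and 2628 to 5018 in WT. For the steps after squalene alone the range was 227 to 1356 in YAPTAZ-ECKO and 1067 to 1544 in WT. SREBP regulators summed to 1823 to 4393 in YAPTAZ-ECKO, the top value being YAPTAZ-ECKO 1 with its high Insig2 and Scap, and to 2410 to 3211 in WT.

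The genes did not rank alike within a library. YAPTAZ-ECKO 1 held the lowest value of 8, ties at 0 included, for 9 of the 22 tested genes and the highest for 4, among them Srebf2, Scap and Insig2. WT 1 held the lowest value for 1 gene and the highest for 2. The median deviation of the 22 genes from their own 8-library means, on the log2 scale of the test, was 0.065, -0.11, -0.072 and -0.35 in YAPTAZ-ECKO 1 to 4, against 0.26, 0.39, 0.19 and -0.16 in WT 1 to 4. WT 4 thus lay below YAPTAZ-ECKO 1 to 3 on this measure. The same medians over all tested genes were -0.21, 0.038, 0.024 and -0.014 in YAPTAZ-ECKO and 0.098, 0.045, 0.10 and 0.016 in WT.

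**Figure D5:**
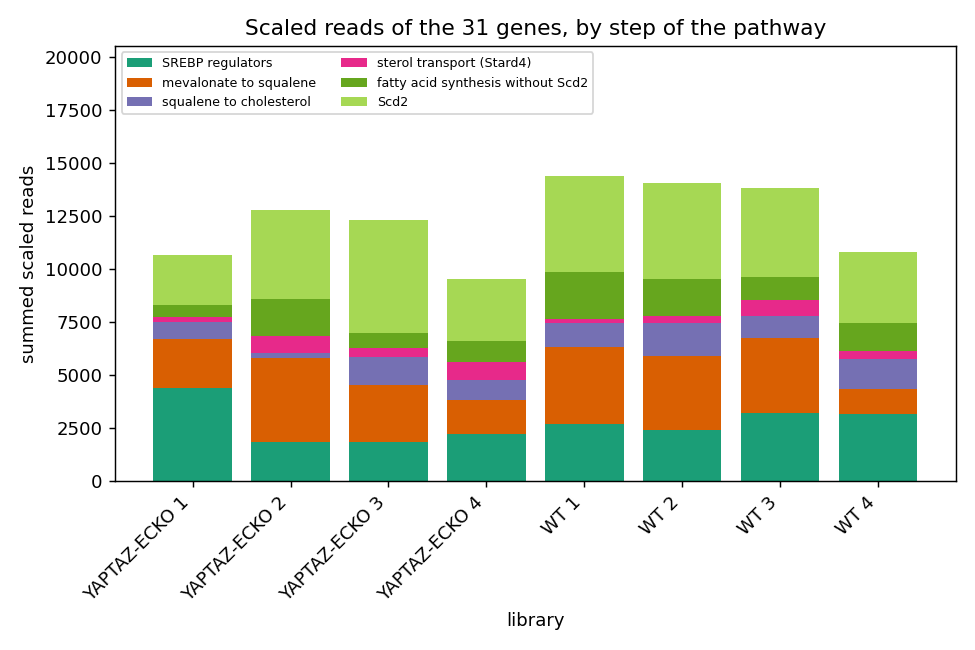
Summed scaled reads of the 31 genes in each library (bars from 0, stacked by pathway step, with Scd2 separate), the 4 YAPTAZ-ECKO libraries left and the 4 WT libraries right. Sums run from 9510 to 12773 in YAPTAZ-ECKO and from 10780 to 14370 in WT.

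Of the further SREBP machinery and sterol synthesis genes, 15 were listed and all 15 tested, and 0 passed the adjusted limma p of 0.05. Unadjusted, 1 of 15 had a limma p under 0.05, lower in YAPTAZ-ECKO, where 3.69% of all tested genes were lower by this rule. Mbtps1 (chromosome 8, 119508156 to 119558735, minus strand), the site-1 protease that makes the first cut in SREBP, stood at 640.5, 2110.0, 1728 and 1965 scaled reads in YAPTAZ-ECKO 1 to 4, against 2656, 3178, 3613 and 3288 in WT 1 to 4. All YAPTAZ-ECKO libraries lay below all WT libraries, as was the case for 2.07% of all tested genes. For Mbtps1 the fitted log2 difference was -1.03 ± 0.38 (SE; 95% interval -1.82 to -0.24; limma p of 0.0123 unadjusted and 0.747 adjusted).

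Ggps1 (chromosome 13, 14050659 to 14063488, minus strand), which makes geranylgeranyl diphosphate from farnesyl diphosphate, stood at 89.3, 1088, 1033 and 347 scaled reads in YAPTAZ-ECKO 1 to 4, against 0, 168, 109 and 382 in WT 1 to 4. YAPTAZ-ECKO 2 and 3 lay above all WT libraries, and YAPTAZ-ECKO 1 and 4 within their range. For Ggps1 the fitted log2 difference was 1.25 ± 0.64 (SE; 95% interval -0.077 to 2.57; limma p of 0.0637 unadjusted and 0.928 adjusted). In these 15 genes the fitted difference was below 0 for 12 and above 0 for 3, where 56.9% of all tested genes were below 0. The median of the 15 was -0.38 against -0.089 over all tested genes. Fnta, the alpha subunit of the enzymes that attach isoprenoids to proteins, averaged 964 ± 568 scaled reads in YAPTAZ-ECKO against 1215 ± 362 in WT (± SD; n = 4 per genotype).

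Uptake, storage and efflux of sterols gave no call among 15 tested of 20 listed genes. While 5.47% of all tested genes had an unadjusted limma p under 0.05, 0 of these 15 did. Of the differences, 9 were below 0 and 6 above it (median -0.054), where 56.9% of all tested genes were below 0. Lrp8, a receptor for apolipoprotein E and reelin, averaged 10189 ± 1382 scaled reads in YAPTAZ-ECKO against 11569 ± 4934 in WT, and Apoe 4157 ± 2359 against 3717 ± 1905 (± SD; n = 4 per genotype). Lipa, the lysosomal lipase that frees cholesterol from its esters, averaged 1515 ± 739 against 2234 ± 727 (± SD; n = 4 per genotype). Soat1, which esterifies cholesterol for storage, stood at 869, 0, 0 and 195 in YAPTAZ-ECKO 1 to 4 against 44.8, 1.48, 164 and 52.7 in WT 1 to 4, high in YAPTAZ-ECKO 1 and at 0 in YAPTAZ-ECKO 2 and 3, as Insig2 was.

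Among other genes of fatty acid and lipid synthesis, 17 of 24 were tested and 0 passed the adjusted limma p of 0.05. Unadjusted, 2 of the 17 had a limma p under 0.05, in opposite directions. Of all tested genes, 5.47% had such a p (3.69% lower and 1.78% higher). Lpin2, a phosphatidate phosphatase, stood at 1616, 371, 1043 and 655 scaled reads in YAPTAZ-ECKO 1 to 4, against 544, 284, 459 and 0 in WT 1 to 4 (limma p of 0.0352 unadjusted and 0.882 adjusted). Acsl4, which activates arachidonic acid, stood at 582, 335, 428 and 0 in YAPTAZ-ECKO 1 to 4, against 726, 847, 1018 and 522 in WT 1 to 4 (limma p of 0.0485 unadjusted and 0.910 adjusted). Elovl1, an elongase of very long chains, averaged 3695 ± 2544 scaled reads in YAPTAZ-ECKO against 1625 ± 1064 in WT, and Acsl3, an acyl-CoA synthetase, 3119 ± 2058 against 3455 ± 1191 (± SD; n = 4 per genotype). The values of Elovl1 and Acsl3 overlapped between the genotypes.

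Fatty acid uptake and oxidation was represented by 12 tested of 19 listed genes. While 5.47% of all tested genes had an unadjusted limma p under 0.05, 0 of these 12 did. Of their differences, 3 were below 0 and 9 above it (median 0.17), where 56.9% of all tested genes were below 0. Mfsd2a, the lipid importer of brain endothelium, averaged 9335 ± 2337 scaled reads in YAPTAZ-ECKO against 8116 ± 1454 in WT (± SD; n = 4 per genotype), a log2 difference of 0.18 with a 95% interval from -0.36 to 0.73. Hadha, a subunit of the mitochondrial trifunctional protein, averaged 1221 ± 296 against 1090.1 ± 285 (± SD; n = 4 per genotype). Slc27a4, a fatty acid transport protein, averaged 575 ± 77.6 against 414 ± 229.7, and Ppard, a nuclear receptor that senses fatty acids, 414 ± 264 against 608 ± 140.3 (± SD; n = 4 per genotype).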

How the data were processed

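Per the labels' protocols, RNA from Trizol extraction went into a Lexogen Quant-Seq library kit. Bowtie2, edgeR and the mm10 build are named in the submitters' processing notes as used by the authors; the sources used here give no counting tool, annotation, strand setting or version. The authors deposited log2 values, 1 table per library, with none below 0; unit and scaling were read from the values. Between 89.8% and 100% of linear values under 12 lay within 0.1 of a whole multiple of 1 step per library, and total divided by step gave the implied depth.

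Values were returned to the linear scale (0 kept at 0) for the 24394 symbols shared by all tables. The deposited values are no counts, so limma 3.58.1 (R 4.3.3) with trended, robust moderation was fitted to log2 of scaled reads plus a pseudocount of 2 to the power of 7, over all 8706 genes that passed the filter, without covariates, with Benjamini-Hochberg adjustment. Fold changes on this scale understate changes of low genes. The functions were tested on simulated data. GENCODE M21 (GRCm38) gave coordinates and exon lengths. It places another gene on the opposite strand of 11 of the 31 genes, Hmgcs1, Mvd, Insig2, Scap and Srebf1 included, whose reads cannot be told apart if strand was ignored. Every listed gene was accounted for; of each related list, the 2 genes with the smallest p and the 2 with the highest mean were named. Members, lists, elements and the filter were chosen with earlier results of these data known. Alternatives were other pseudocounts, filters and scalings, voom with quality weights on reads rebuilt from the steps, the replicate number as a block, and each library left out in turn. A gene of the further sterol synthesis list is not reported here and was left out of its counts.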

Additional observations from a re-analysis of the deposited data

Results flagged for a closer look

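Within a group of 4 libraries, a value far from the other 3 on the log2 scale of the test was found 13 times among 61 groups with any spread (the 31 genes, Yap1 and Wwtr1). A gene at or near 0 in 3 libraries and above it in the other meets this by construction, as in 10 of the 13 cases, all of untested genes. Among 48 groups of tested genes there were 3 such cases, where chance marks about 1 group in 20. The gap to the nearest library exceeded Dixon's 95% critical share of the group's range in each case. Of genes in the test, Mvk was low in YAPTAZ-ECKO 2 (378 scaled reads), Srebf1 was low in WT 2 (148) and Scap was low in WT 3 (168). Of genes outside the test, single libraries stood above others at or near 0 in YAPTAZ-ECKO for Sqle (214 in YAPTAZ-ECKO 4), Tm7sf2 (65.8 in YAPTAZ-ECKO 2), Acaca (225 in YAPTAZ-ECKO 3) and Elovl6 (27.6 in YAPTAZ-ECKO 4). The same was seen in WT for Sqle (266 in WT 1), Lss (3.60 in WT 3), Tm7sf2 (24.1 in WT 1), Acaca (160.4 in WT 2), Scd1 (11.7 in WT 1) and Fads2 (276 in WT 4).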

How the results depend on the processing

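None of the cholesterol and fatty acid synthesis genes passed under any of 18 alternatives (lowest limma adjusted p 0.495, Insig2 without YAPTAZ-ECKO 1), and 14 of the 22 kept the sign of their difference throughout. The number of genes called among all tested, 3, became 0 with a pseudocount of 1, with no filter and with voom on rebuilt reads, 5 with the replicate number as a block, and 0 to 7 with 1 library left out (0 without WT 2, 1 without WT 1 or WT 4, 7 without YAPTAZ-ECKO 3). The block left 0 of the 22 genes called. After each gene's group mean was subtracted, same-numbered libraries correlated at -0.043 to 0.076, and they are not shown to be paired. Wwtr1 kept its sign and lost its call in 9 alternatives, among them leaving out YAPTAZ-ECKO 4 (limma adjusted p 0.0618), WT 1 (0.0783), WT 2 (0.0574), WT 3 (0.0501) or WT 4 (0.0504). The median difference of the 22 genes was -1.06 with voom, where that of all genes was -0.25, -0.49 against -0.28 with a pseudocount of 1, -0.36 against -0.20 with 16, and -0.31 to -0.070 with 1 library left out. Genes without overlap numbered 0 to 2 with 1 library left out, the 2 being Acat2 and Mvk without YAPTAZ-ECKO 2. With a pseudocount of 1 the difference turned to -0.20 for Fasn, -0.46 for Hsd17b7, -0.033 for Nsdhl and -0.64 for Soat1; with 16 it was -0.069 for Hsd17b7. With voom it turned to -1.43 for Hsd17b7, 0.97 for Insig1, -0.069 for Nsdhl and -1.64 for Soat1. The cause was not tested. Leaving out 1 library turned the sign of 13 named genes, with ranges of -0.74 to 0.16 for Acsl3, -0.27 to 0.49 for Apoe, -0.44 to 0.17 for Cyp51, -0.027 to 0.69 for Fasn, -0.51 to 0.059 for Fdft1, -0.039 to 0.32 for Hadha, -0.16 to 0.26 for Hsd17b7, -0.36 to 0.23 for Insig1, -0.38 to 0.16 for Lrp8, -0.93 to 0.33 for Mvd, -0.032 to 0.60 for Nsdhl, -0.26 to 0.42 for Scap and -0.088 to 0.90 for Soat1. The fitted difference of Mbtps1 (-1.19 to -0.68) stayed below 0 with each library left out. Listed zeros limit what single genes show, and 9 of 31 did not enter the test.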
